A study of Xenopus laevis with 11 samples.

Results

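Long intervals without H3K4me3 were described in early gastrulae (NF stage 10.5) of the frog Xenopus laevis. They are the gaps of 500 kb or more between consecutive intervals of the series-wide H3K4me3 peak list on the same L or S chromosome. Of 22173 such gaps on 18 chromosomes, 812 were that long, or 3.66%. They were chosen by the H3K4me3 positions alone, so their number, length and place are given as a description, and tests were run only on p300, which the choice did not use. The series profiled histone marks, p300 and RNA polymerase II by chromatin immunoprecipitation and sequencing (ChIP-seq). Peak lists of 2 replicates each of H3K4me3 (antibody ab8580) and p300 (antibody C-20, sc-585) were analysed, with the series-wide list of each target. All came from pools of cross-linked whole embryos of that stage, so each list sums over all cell types of the embryo, and the labels name no treatment, genotype or separate clutches. Whether the spread between replicates includes differences between clutches is therefore unknown. Each series-wide interval, all 22191 of H3K4me3 and all 23017 of p300, had exactly the ends of an overlap between a replicate 1 and a replicate 2 interval, so a series-wide interval is the stretch that both libraries called.

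H3K4me3, the trimethylation of lysine 4 of histone H3, is laid down around the start sites of active and poised genes, and its narrow peaks mark promoters. The coactivator p300 acetylates histones and is recruited by transcription factors to enhancers, often far from the promoter they act on, as well as to promoters. At the early gastrula the zygotic genome is being transcribed and the germ layers are being specified, so distal p300 sites of that stage include candidate enhancers of developmental genes. Xenopus laevis is allotetraploid, and each chromosome has a long (L) and a short (S) homeolog from different ancestral species.

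The 812 long gaps covered 639 Mb, or 25.5% of the 2508 Mb spanned by the L and S chromosomes, and 25.8% of all sequence between H3K4me3 intervals. Their median length was 694 kb (quartiles 578 and 873 kb), whereas the gaps of any length had a median of 52.6 kb (quartiles 17.6 and 130 kb). Few gaps were very long. 339 reached 750 kb, 130 reached 1 Mb, 30 reached 1500 kb and 8 reached 2 Mb. Lengths ran on across the threshold. The shortest members measured 500035, 500040 and 500056 bp, on 4L, 3S and 1S, and the longest gaps left out measured 499956, 499323 and 499200 bp, on 6S, 9_10S and 9_10L. The 3 shortest members held 2, 6 and 5 series-wide p300 peaks, and the 3 left out held 1, 3 and 2. In replicate 1 the members held 3, 7 and 5 and those left out 1, 4 and 5, and in replicate 2 the members held 6, 10 and 18 and those left out 6, 8 and 4. These spans hold no H3K4me3 that both libraries called, but most of them held calls of a single library.

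The longest gap lay on chromosome 6L from 77638589 to 81413874 (3775286 bp; coordinates are 1-based, in the build of the deposited lists, which is not given in the sources used here). Series-wide p300 had 4 peaks in it, replicate 1 had 6 and replicate 2 had 21. The series-wide peaks began at 77695878, 78011594, 78643495 and 80953184, between 57.4 and 1005 kb from the nearest series-wide H3K4me3 interval. Between them lay 868628 bp, from 79903321 to 80771948, without p300 in any list, the longest such stretch in any of the 812 gaps. The gap also held 8 H3K4me3 calls of replicate 1 alone and 2 of replicate 2 alone, to which distance was not measured. Its longest stretch without an interval of any list, p300 or H3K4me3, was 319 kb, from 79454475 to 79773123. The gap was bounded by H3K4me3 intervals of 1672 and 261 bp. It was the middle member of a run of 3 long gaps, from 76554207 to 82039805, in which 5.49 Mb was interrupted by 2 isolated H3K4me3 intervals and held 7 series-wide p300 peaks.

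The next longest gap, on 8L from 31153384 to 33618970 (2465587 bp), was richer in p300. There were 11 series-wide peaks, with 13 in replicate 1 and 31 in replicate 2. Of the series-wide peaks, 4 lay 16.5 to 102 kb inside its left end and the other 7 lay 798 to 1201 kb from any series-wide H3K4me3. The gap also held 4 H3K4me3 calls of replicate 1 alone and 2 of replicate 2 alone, to which distance was not measured. The 3 series-wide p300 peaks of all long gaps that were farthest from series-wide H3K4me3 were all in this gap, at 32418055 to 32418159 (1201 kb away), 32281187 to 32281438 (1128 kb) and 32504978 to 32505170 (1114 kb). The longest gap of an S chromosome lay on 4S from 34904319 to 37274599 (2370281 bp) and held 2 series-wide peaks of p300, with 4 in replicate 1 and 13 in replicate 2.

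The other gaps among the 10 longest ran from 1926505 to 2222400 bp and differed widely in p300. On 3S from 31544185 to 33587553 there were 16 series-wide peaks, 18 in replicate 1 and 44 in replicate 2. On 3L from 110814168 to 112843463 there were 15, with 21 in replicate 1 and 30 in replicate 2. By contrast, a gap of nearly the same length on 3L, from 115308504 to 117333619, held 1, with 5 in replicate 1 and 14 in replicate 2. The gap on 2L from 3526657 to 5642200 held 2, with 4 in replicate 1 and 19 in replicate 2. That on 3L from 26841254 to 28792691 held 3, with 3 and 20 in the replicates, that on 9_10S from 48981622 to 51204021 held 6, with 7 and 21, and that on 4L from 44623679 to 46550183 held 9, with 13 and 22. Replicate 2 thus had more than 2 times the series-wide count in each of these 4 gaps. Across the 10, length did not order the p300 counts.

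**Figure D1:**
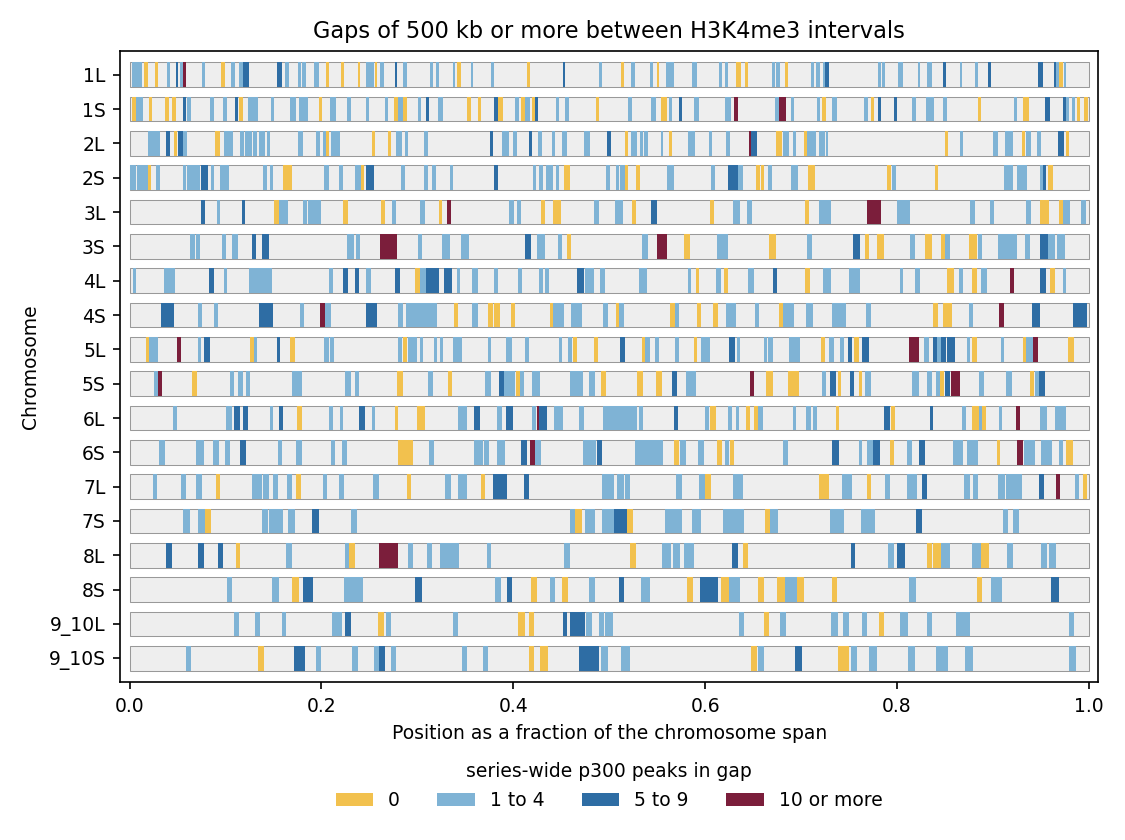
Long gaps along the 18 L and S chromosomes. The x axis is position as a fraction of the chromosome span, each bar is 1 gap of 500 kb or more drawn to scale, and its colour gives the number of series-wide p300 peaks inside it. Gaps are spread over every chromosome, and 23 of the 812 hold 10 or more p300 peaks.

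Long gaps lay on every chromosome, with 25 on 9_10S, the fewest, and 71 on 1S, the most. They covered 17.1% of the span of 9_10L, the lowest share, and 30.3% of 6S, the highest. The L chromosomes held 433, with a median of 690 kb, and the S chromosomes held 379, with a median of 696 kb. The number was higher on L in 8 of 9 pairs (log2 L to S ratio 0.21 ± 0.25, mean and SD). As a share of the span, long gaps made up 24.8% of L and 26.3% of S, and here the log2 L to S ratio was -0.07 ± 0.16. Both subgenomes had 65 gaps of 1 Mb or more.

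Along the chromosomes the mean coverage was nearly even. With every chromosome cut into 10 equal parts, the mean share covered by long gaps was lowest in part 1, at 20.1% ± 15.0 (SD over 18 chromosomes), and highest in part 5, at 28.1% ± 11.7. Single chromosomes varied widely within a part, and in part 7, for example, coverage ran from 11.2% to 64.3%. The 64.3% was on 8S, where long gaps covered 22.7% of the whole span. Members lay a median of 35.7 Mb from the nearer end of their chromosome, and 48 of the 812 lay within 5 Mb of it. The values expected from even placement were not computed.

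The same parts of homeologous chromosomes were covered to a similar extent in some pairs only. Over the 90 parts, L and S coverage had a Pearson r of 0.34 and a Spearman rho of 0.33, which is a description, since parts were matched by relative position and not by aligned sequence. In pair 9_10 the values were 0.97 and 0.90 over 10 parts, and part 5 was covered to 47.4% on 9_10L and 41.3% on 9_10S. The longest gap of each lay there, at 0.467 of the span of 9_10L (54119541 to 55952337, 1.83 Mb, with 5 series-wide p300 peaks) and at 0.479 of the span of 9_10S (2.22 Mb, with 6). The 9_10L gap was named after its values had been seen. In pair 2 the r was 0.70, while it was -0.19 in pair 7 and -0.25 in pair 8.

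Some long gaps were neighbours. Long gaps made up 3.66% of all gaps, and the number of neighbours expected from that share was not computed. Of 794 pairs of members that follow each other on a chromosome, 91 were separated by a single H3K4me3 interval and 136 by 2 to 5, while the median was 15.0 intervals. Runs of members with nothing but single intervals between them numbered 81 and took in 172 gaps, or 21.2%. The longest run had 4 gaps, on 1L from 211722921 to 214578997 (2.86 Mb), with 3 intervals of 346 to 1240 bp between them and 7 series-wide p300 peaks. On 8S, a run of 3 from 66860620 to 69609337 (2.75 Mb) held 1.

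Most long gaps held H3K4me3 calls of a single replicate. Of the 812 gaps, 595 held at least 1 such call and 217 (26.7%) held none. A longer gap reaches a count of at least 1 more easily, and the share among shorter gaps is not given. Replicate 1 contributed 976 calls, at most 8 in a gap, and 293 gaps had none of its calls. Replicate 2 contributed 311, at most 6 in a gap, and 567 gaps had none. In 169 gaps each replicate had calls of its own, at different places.

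These calls were narrow, with a median width of 332 bp in replicate 1 (quartiles 228 and 542 bp) and 256 bp in replicate 2 (quartiles 184 and 406 bp). 50 of the replicate 1 calls and 0 of the replicate 2 calls were 1000 bp or wider. Per Mb, replicate 1 had 1.53 calls in long gaps (Poisson 95% interval 1.43 to 1.63) and 3.50 in shorter gaps (3.41 to 3.59), and replicate 2 had 0.487 (0.434 to 0.544) and 0.938 (0.894 to 0.983). The intervals cover counting error only, and no test was run, because these calls belong to the measure that defined the gaps. A stretch of 500 kb or more without a call of either replicate was left in 508 members, or 62.6%. Series-wide p300 overlapped 14.7% of the replicate 1 calls in long gaps (Wilson 95% interval 12.6 to 17.0%), compared with 21.2% of those in shorter gaps (20.3 to 22.3%), and 4.82% of the replicate 2 calls in long gaps (2.94 to 7.80%), compared with 5.35% in shorter gaps (4.38 to 6.51%). The p300 replicate 1 list ran the other way for the H3K4me3 replicate 2 calls, overlapping 19.0% of them in long gaps (15.0 to 23.7%) and 10.4% in shorter gaps (9.05 to 11.9%).

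p300 was present in most long gaps, at a low density. Inside them lay 1989 of the 23017 series-wide p300 peaks, or 8.64%. That total includes peaks on H3K4me3, which no gap can hold. Of the 16076 that lay in a gap of any length, 12.4% were in long gaps, which made up 25.8% of the gap sequence. Replicate 1 had 2926 of its 31347 peaks there (9.33%) and replicate 2 had 7499 of 54814 (13.7%). A further 38 series-wide p300 peaks crossed an end of a long gap, overlapped H3K4me3 there and were not counted. Of the 1989, 193 overlapped sequence called as H3K4me3 in 1 replicate, or 9.70% (8.48 to 11.1%), compared with 16.2% (15.6 to 16.8%) of the p300 peaks in shorter gaps. Such sequence can be the outer edge of a call that both replicates share, because a series-wide interval is only their overlap. Shorter gaps have more such edges per Mb, which was not matched.

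The number of p300 peaks per gap varied more than its length. Among gaps of 250 to 500 kb, 1079 of 1749 (61.7%) held at least 1 series-wide peak. In the 812 long gaps that was true of 625, and 187 (23.0%) had none. 202 gaps had 1, 287 had 2 to 4, 113 had 5 to 9 and 23 had 10 or more, with a median of 2 and a maximum of 22. The variance of the counts was 3.35 times their mean. The 81 gaps with the highest counts held 36.8% of the peaks. Length and count had a Spearman rho of 0.17 across the 812 gaps for the series-wide list, 0.23 for replicate 1 and 0.35 for replicate 2. The gaps share libraries, so these are descriptions.

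By replicate, 88 gaps had no replicate 1 peak, 2 had no replicate 2 peak, and 0 of the 812 had no p300 in any list. In 97 gaps without a series-wide peak, both replicates had p300 calls at different positions. Peaks per Mb in the 2 replicates had a Pearson r of 0.72 and a Spearman rho of 0.58 across the gaps. The longest stretch free of p300 in all lists had a median of 249 kb per gap (quartiles 183 and 332 kb), and 39 gaps contained such a stretch of 500 kb or more.

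**Figure D2:**
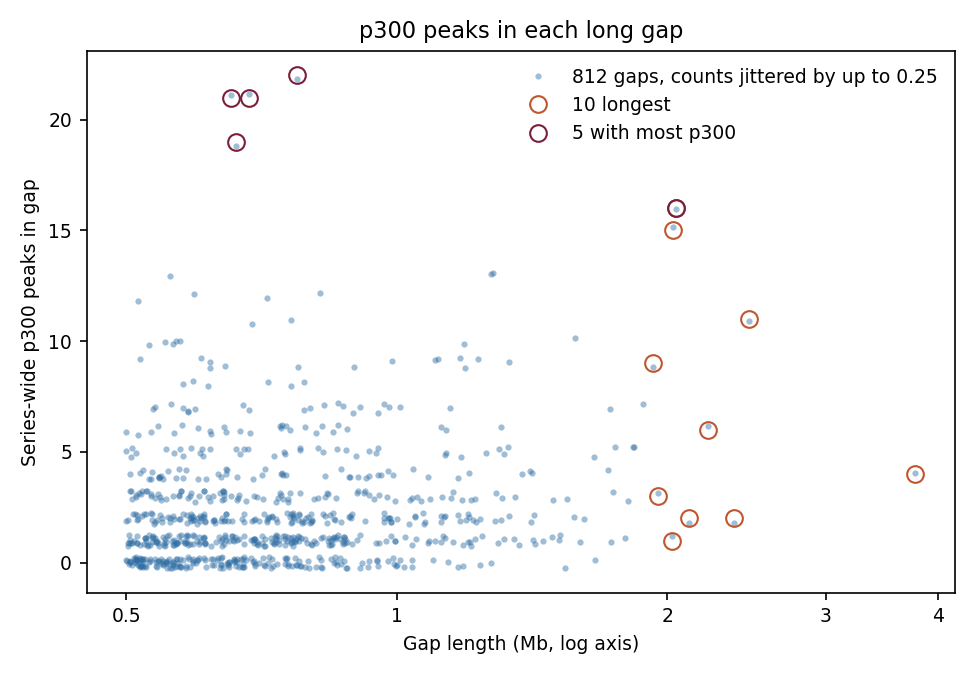
Series-wide p300 peaks in each of the 812 long gaps (y axis) against gap length in Mb (x axis, log scale). Each point is 1 gap, shifted up or down by up to 0.25 to separate ties, and rings mark the 10 longest and the 5 with most p300. The highest count, 22, is in a gap of 0.775 Mb, while the longest gap, of 3.78 Mb, holds 4.

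A small set of gaps carried dense arrays of p300. The highest count was on 6S from 118782311 to 119556945 (775 kb), with 22 series-wide peaks, while replicate 1 had 27 and replicate 2 had 35. Next was 5L from 7842478 to 8496899 (654 kb), with 21, 26 and 36 peaks in the same order of lists. The gap on 6L from 143267696 to 143952897 (685 kb) had 21, 25 and 30, and that on 4L from 132264711 to 132927660 (663 kb) had 19, 23 and 24. Next came the long 3S gap already described, with 16. In density, the 5L gap led with 32.1 series-wide peaks per Mb, followed by the 6L gap with 30.6, the 4L gap with 28.7 and the 6S gap with 28.4. These values stand against 3.11 per Mb over all long gaps. The fifth in density was on 6L from 65752857 to 66268152 (515 kb), with 12 series-wide peaks or 23.3 per Mb, 16 in replicate 1 and 27 in replicate 2.

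In each of these 5 richest gaps the p300 peaks were gathered on 1 side of the midpoint. The 6S gap had 20 peaks left of it and 2 right, the 5L gap 20 and 1, the 6L gap 20 and 1, the 4L gap 18 and 1, and the 3S gap 0 and 16. On 5L the peaks ran from 7851447 to 8258645, with the first 9.18 kb inside the gap, a median spacing of 4.63 kb between centres and a widest spacing of 251 kb. In 4 of the 5 gaps the crowded side was bounded by a broad H3K4me3 interval, of 4077 bp on 5L, 3891 bp on 6L, 7213 bp on 4L and 4923 bp on 3S. Among all 812 long gaps, 272 had a bounding interval of 2000 bp or more on at least 1 side. Of all 1533 bounding intervals, 279 were that broad. The 5 gaps were picked by their p300 counts, and no test was run on them. On 6S the crowded side was bounded by an interval of 670 bp, and the nearest p300 peak was 51.0 kb from it. Of the bounding intervals on the crowded side, those on 5L, 4L, 3S and 6S overlapped p300 and that on 6L did not. The other 6L gap named for its density, from 65752857, ran the other way. Most of its series-wide peaks lay right of the midpoint, toward an interval of 2478 bp, while the left interval was wider, at 4716 bp.

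Of the gaps with the highest counts, those on 6S and 6L lay at matching places of homeologous chromosomes, at 0.928 and 0.926 of the span. Each was the long gap nearest in relative position to the other. For the 4L gap, at 0.920, the nearest long gap of 4S was at 0.909 (109911313 to 110505627) and held 12 series-wide peaks, while replicate 1 had 14 and replicate 2 had 27. For the 5L gap, at 0.0513, the nearest on 5S was at 0.0674 (8841270 to 9553982) and held 0, with 0 in replicate 1 and 11 in replicate 2. Nearly as close was a 5S gap at 0.0317 (3986349 to 4676591), named with its values in view, with 11 series-wide peaks, 14 of replicate 1 and 29 of replicate 2. For the 3S gap, at 0.270, the nearest on 3L was at 0.276 (39519711 to 40160000) and held 3, while replicate 1 had 4 and replicate 2 had 11. The sequences were not aligned, so whether these gaps correspond was not tested.

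Unequal sides were also counted over all gaps with many peaks. Of 136 gaps with 5 or more series-wide p300 peaks, 81 (59.6%) had at least 80% of them on 1 side of the midpoint. In replicate 1 it was 102 of 225 (45.3%) and in replicate 2 130 of 640 (20.3%). A gap with few peaks reaches such a split more easily, and the share expected from the counts alone was not computed. The lists differ in peaks per gap, so their shares are not compared. More p300 lay toward the wider of the bounding intervals in 288 of 529 gaps with unequal sides, or 54.4% (Wilson 95% interval 50.2 to 58.6%). In replicate 1 it was 335 of 623, or 53.8% (49.8 to 57.7%, which includes 50%). In replicate 2 it was 386 of 712, or 54.2% (50.5 to 57.8%). No test was run on these shares.

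At the other end were long gaps with hardly any p300. The longest without a series-wide peak was on 5S from 93599310 to 95262380 (1663 kb). It had 1 peak in replicate 1 and 8 in replicate 2, and a stretch of 687 kb in it was free of p300 in all lists. The next were on 2S from 25510337 to 27051293 (1541 kb), with 1 peak in replicate 1 and 12 in replicate 2, and on 1L from 138891331 to 140164121 (1273 kb), with 3 and 4. The 1L gap held 851 kb without p300 in any list, from 138927589 to 139778881. On 1S, from 69195346 to 70054091, 859 kb of a gap of 932 kb was free of p300, and 756 kb of that gap had no interval of any list. The gap had 0 peaks in replicate 1 and 4 in replicate 2. How much of these stretches is unassembled or repeated sequence was not measured.

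The density of p300 was compared between long gaps and the shorter gaps between H3K4me3 intervals. Peaks that overlap H3K4me3 lie in no gap and were left out on both sides. Long gaps held 3.11 series-wide peaks per Mb (Poisson 95% interval 2.98 to 3.25) and shorter gaps 7.68 (7.55 to 7.80). In replicate 1 the densities were 4.58 in long gaps (4.42 to 4.75) and 10.5 in shorter ones (10.3 to 10.6), and in replicate 2 they were 11.7 (11.5 to 12.0) and 20.3 (20.1 to 20.5). Long gaps were thus lower in both libraries, and less so in replicate 2, the larger list.

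Over the 9 homeologous chromosome pairs, with L and S summed, the mean log2 ratio was -1.35 ± 0.41 (SD), or 0.394-fold, below 0 in 9 of 9 pairs (two-sided exact sign-flip permutation test, p = 0.00391, the smallest possible; 0.00911 after Benjamini-Hochberg adjustment over 7 tests). It was -1.23 ± 0.37 with replicate 1 alone and -0.81 ± 0.20 with replicate 2 alone, each below 0 in 9 of 9 pairs. The series-wide ratio ran from -1.87 in pair 9_10, where long gaps held 2.56 and shorter gaps 9.40 per Mb, to -0.72 in pair 5, with 3.83 in long and 6.30 in shorter gaps. Over the 9 pairs, long gaps ran from 2.56 to 3.83 per Mb and shorter gaps from 6.30 to 9.81. The permutation test asks whether a difference recurs from chromosome pair to chromosome pair. It says nothing of the spread between embryo batches.

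**Figure D3:**
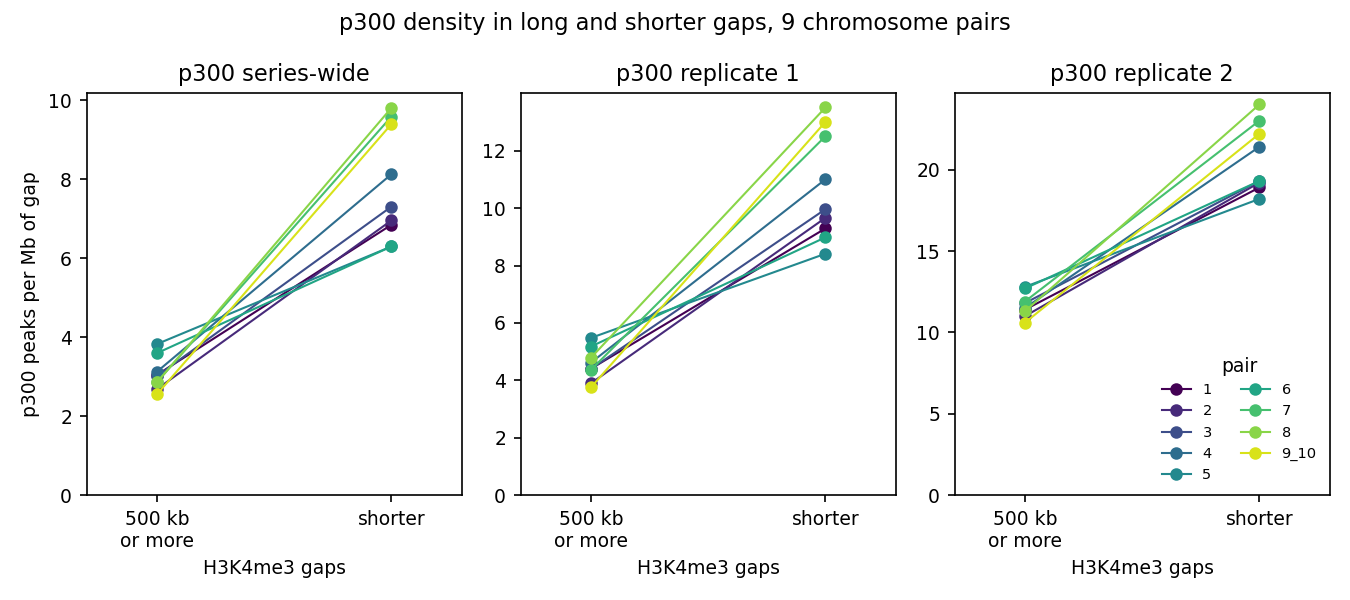
p300 peaks per Mb of gap in gaps of 500 kb or more (left points) and in shorter gaps (right points) for the 9 homeologous chromosome pairs, L and S summed, with 1 panel per p300 list and a y axis of its own from 0. Each line is a pair, and every line is lower in long gaps in all 3 lists.

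Density fell step by step with gap length and did not break at 500 kb. Series-wide p300 had 37.6 peaks per Mb in gaps under 10 kb, 14.5 from 10 to 50 kb, 10.4 from 50 to 100 kb, 6.83 from 100 to 250 kb and 4.33 from 250 to 500 kb. Among the long gaps it was 3.67 (3.45 to 3.90) from 500 to 750 kb, 2.86 (2.62 to 3.12) from 750 to 1000 kb and 2.47 (2.24 to 2.72) above. Replicate 1 had 5.25, 4.32 and 3.76 per Mb in these last 3 classes, and replicate 2 had 13.1, 11.0 and 10.4. A longer gap reaches a count of at least 1 more easily, and the share with a series-wide peak rose over all length classes. It was 11.2%, 25.4%, 39.3%, 50.6% and 61.7% in the 5 classes under 500 kb, from the shortest up. It was 72.1% in the gaps from 500 to 750 kb, 79.4% from 750 to 1000 kb and 90.8% above. The share expected from length alone was not computed.

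**Figure D4:**
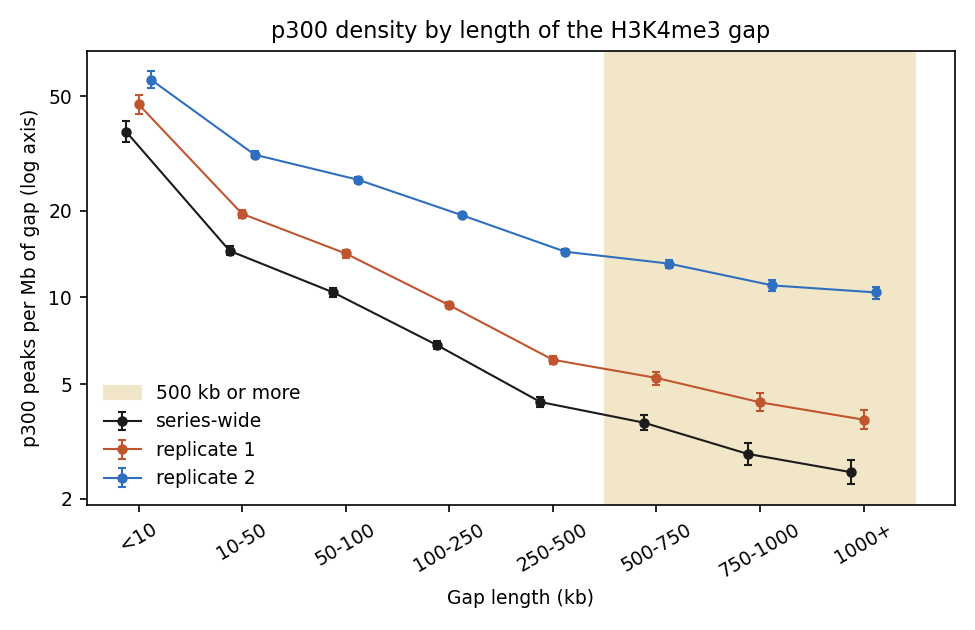
p300 peaks per Mb of gap (y axis, log scale) by length class of the H3K4me3 gap in kb (x axis), for the series-wide list and each replicate, with Poisson 95% intervals. Shading marks gaps of 500 kb or more. Series-wide density declines from 37.6 per Mb in gaps under 10 kb to 2.47 per Mb in gaps of 1 Mb and more.

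Within the long gaps p300 was denser toward the ends. The peaks lay a median of 106 kb from the nearest H3K4me3 interval (quartiles 35.2 and 219 kb), 222 of them (11.2%) within 10 kb and 386 (19.4%) 250 kb or more away. With each gap cut into 10 equal parts, the first and last part held 23.0% and 18.8% of the peaks, and the 8 parts between held 5.38% to 10.5%. Series-wide density was 19.4 peaks per Mb (14.9 to 24.8) within 2 kb of H3K4me3, 7.43 (6.39 to 8.60) at 10 to 25 kb, 3.93 (3.51 to 4.38) at 50 to 100 kb and 1.67 (1.49 to 1.87) at 250 to 500 kb. Beyond 500 kb it was 1.59 (1.24 to 1.99), an interval that overlaps the one before it.

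Because long gaps hold more sequence far from H3K4me3, the comparison was repeated within bands of distance. Between 50 and 250 kb from H3K4me3, long gaps held 2.98 series-wide peaks per Mb (2.79 to 3.17) and shorter gaps 3.74 (3.59 to 3.88). This band matched distance only in part, since density fell with distance inside it. In long gaps 244 of its 325 Mb lay at 100 to 250 kb, compared with 280 of 692 Mb in shorter gaps. How much of the difference follows from that was not tested. The mean log2 ratio was -0.38 ± 0.42, lower in long gaps in 7 of 9 pairs (exact permutation p = 0.0352, adjusted 0.0410). It was -0.34 ± 0.32 with p300 replicate 1 alone (7 of 9 pairs, exact p = 0.0234) and -0.23 ± 0.22 with replicate 2 alone (6 of 9 pairs, exact p = 0.0312). In narrower bands, chosen with the data in view, the difference did not pass. From 50 to 100 kb long gaps held 3.93 and shorter gaps 4.35 (4.15 to 4.55) per Mb, a mean log2 ratio of -0.30 ± 0.75 (6 of 9 pairs, exact p = 0.277). From 100 to 250 kb they held 2.66 (2.46 to 2.87) and 2.84 (2.65 to 3.05), a ratio of -0.12 ± 0.27 (6 of 9 pairs, exact p = 0.195). The wide band itself did not pass for gaps of 750 kb or more (exact p = 0.0938) or for p300 peaks of 200 bp or more (exact p = 0.0781).

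Closer in, the Poisson intervals, which take peaks as independent, overlapped in some bands and not in others. At 5 to 10 kb long gaps held 8.99 per Mb (7.05 to 11.3) and shorter gaps 12.0 (11.5 to 12.5), and at 10 to 25 kb 7.43 (6.39 to 8.60) and 8.93 (8.63 to 9.23). At 2 to 5 kb the values were 17.7 (14.1 to 21.8) in long and 16.5 (15.8 to 17.3) in shorter gaps, with overlapping intervals. From 25 to 50 kb they were 5.74 (5.03 to 6.53) in long and 6.04 (5.80 to 6.28) in shorter gaps. Within these bands the values of long gaps were at least 0.749 of those of shorter gaps, against 0.406 without matching.

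**Figure D5:**
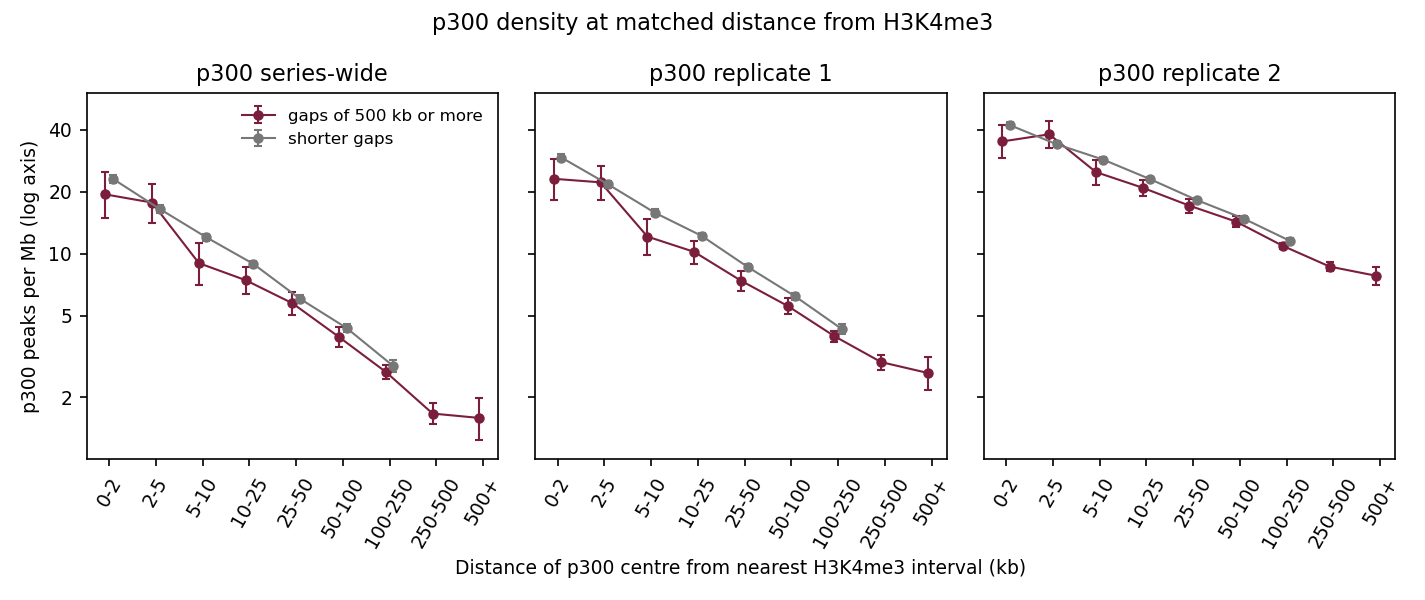
p300 peaks per Mb (y axis, log scale) by distance of the p300 centre from the nearest H3K4me3 interval in kb (x axis), in gaps of 500 kb or more and in shorter gaps, for the series-wide list and each replicate, with Poisson 95% intervals. Shorter gaps have no sequence beyond 250 kb. Series-wide density falls with distance in both, and at 100 to 250 kb the series-wide values are 2.66 in long and 2.84 in shorter gaps.

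The recurrence of p300 between replicates was lower in long gaps. Of the replicate 1 peaks, 67.8% (66.1 to 69.5%) of those in long gaps and 72.8% (72.2 to 73.4%) of those in shorter gaps overlapped a replicate 2 peak. The mean difference was -5.46 ± 3.95 percentage points (9 of 9 pairs, exact permutation p = 0.00391, adjusted 0.00911), and -9.69 ± 4.83 points among peaks of 200 bp or more. Of the replicate 2 peaks, 26.1% (25.1 to 27.1%) in long gaps and 36.7% (36.2 to 37.2%) in shorter gaps overlapped a replicate 1 peak, a mean difference of -10.97 ± 4.61 points (9 of 9 pairs, exact permutation p = 0.00391, adjusted 0.00911). Among peaks 50 to 250 kb from H3K4me3, a selection made with the data in view, the differences were -1.47 ± 6.93 points (exact p = 0.508) and -2.64 ± 3.67 points (exact p = 0.0664), and neither passed. With gaps taken from the H3K4me3 replicate 1 list alone, the replicate 1 difference was -8.77 points. Read depth is unknown, and its part in recurrence was not tested.

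As parts called by both libraries, the p300 peaks of long gaps were slightly narrower, with a median of 192 bp (quartiles 158 and 258 bp) compared with 206 bp in shorter gaps (163 and 279 bp). The mean log2 ratio of medians was -0.11 ± 0.08 (8 of 9 pairs, exact permutation p = 0.00781, adjusted 0.0109), -0.07 in replicate 1 and -0.04 in replicate 2. Among peaks 50 to 250 kb from H3K4me3 it was -0.02 ± 0.10 (exact p = 0.594), and among peaks of 200 bp or more -0.03 (exact p = 0.0742).

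Peaks were also joined into groups by distance, a count that varies with density, which was not matched here. When peaks up to 12.5 kb apart were joined, 66.0% of the 1989 peaks in long gaps stood alone, compared with 53.7% of the 14087 in shorter gaps. Groups of 5 or more held 122 peaks (6.13%) in 21 groups in long gaps and 8.43% in shorter ones. No test was run on these shares. The largest group had 10 peaks over 36.6 kb, on 5L from 7851447 to 7888053 in the gap described above, and the next had 9, on 7L from 122481773 to 122518616, each about 9 kb from H3K4me3 at its nearest (9.18 and 9.23 kb). A group of 8 on 4L from 132297655 to 132315496 lay 33.2 kb from H3K4me3, and 6 peaks on 1L from 12795940 to 12804886 lay 71.7 kb from it.

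The H3K4me3 intervals at the ends of long gaps numbered 1533, of which 91 had a long gap on both sides. Their median width was 1016 bp (quartiles 587 and 1625 bp), compared with 1125 bp (710 and 1703 bp) for the 20658 other intervals. Series-wide p300 overlapped 344 of them, or 22.4% (20.4 to 24.6%), and 25.4% (24.8 to 26.0%) of the others. The mean difference was -3.61 ± 3.13 percentage points (8 of 9 pairs, exact permutation p = 0.00781, adjusted 0.0109). It was -4.45 with p300 replicate 1 and -5.27 with replicate 2, and -6.69 where gaps and intervals came from the H3K4me3 replicate 1 list alone. Pair 8 had the largest difference, -10.86 points, and pair 1 was the exception with 0.25.

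In both classes the p300 share was higher among broader intervals. Below 500 bp, 11.6% (8.53 to 15.6%) of the bounding and 16.5% (15.3 to 17.8%) of the other intervals overlapped p300. From 500 to 1000 bp the shares were 15.7% (12.6 to 19.4%) and 18.2% (17.2 to 19.3%). From 1000 to 2000 bp the shares were 20.4% (17.1 to 24.1%) and 23.5% (22.6 to 24.4%), and from 2000 bp upward 49.1% (43.3 to 54.9%) and 48.4% (46.8 to 50.0%). In each of these width classes the 95% intervals of bounding and other intervals overlapped. Among all intervals of 500 bp or more, a selection made with the data in view, the mean difference was -2.96 ± 4.23 points. It was below 0 in 8 of 9 pairs (exact permutation p = 0.0430). The 91 intervals with a long gap on both sides overlapped p300 in 29.7% of cases (21.3 to 39.7%), and those with a long gap on 1 side in 22.0% (19.9 to 24.2%).

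Long gaps beside a broad H3K4me3 interval held more p300. For this comparison, which was added with the data in view, the wider of the bounding intervals placed each gap in a class. Gaps where it was under 1000 bp held 2.68 series-wide peaks per Mb (2.43 to 2.96), those from 1000 to 2000 bp 2.50 (2.32 to 2.69), those from 2000 to 4000 bp 3.73 (3.44 to 4.04) and those from 4000 bp 6.09 (5.41 to 6.84). The last class was 57 gaps. The 272 gaps with a bounding interval of 2000 bp or more exceeded the 540 others by a mean log2 ratio of 0.71 ± 0.27, or 1.64-fold (9 of 9 pairs, exact permutation p = 0.00391, not adjusted, 1 of 2 tests added). With p300 replicate 1 alone the ratio was 0.57 ± 0.27 and with replicate 2 alone 0.36 ± 0.19, each above 0 in 9 of 9 pairs. It did not pass when gaps and widths came from the H3K4me3 replicate 1 list, with 0.23 ± 0.56 (5 of 9 pairs, exact p = 0.246), nor from the calls of both replicates joined, with 0.27 (exact p = 0.176). The 272 gaps include those on 5L, 6L, 4L and 3S named above for most p300. The ratio without them was not computed.

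Pooled over all long gaps, p300 was denser in sequence whose nearest bounding interval was broad. The Poisson intervals were apart in the bands from 2 to 250 kb. They take peaks as independent, although the variance of series-wide counts per gap was 3.35 times their mean. They are therefore too narrow for clumped peaks, and their separation does not measure a difference. The sides of a single gap were not compared here, and no test was run on these densities. At 2 to 5 kb from a bounding interval of 2000 bp or more, long gaps held 45.4 p300 peaks per Mb (32.6 to 61.6), and at the same distance from a narrower one 11.3 (8.27 to 15.2). At 10 to 25 kb the values were 16.6 (13.1 to 20.8) and 5.34 (4.37 to 6.46), at 50 to 100 kb 7.51 (6.19 to 9.03) and 3.11 (2.70 to 3.57), and at 100 to 250 kb 3.70 (3.16 to 4.30) and 2.42 (2.21 to 2.65). At 250 to 500 kb they were 1.97 (1.52 to 2.51) and 1.61 (1.42 to 1.82), and beyond 500 kb 1.46 (0.628 to 2.87) and 1.60 (1.24 to 2.05), with overlapping intervals. Gaps with p300 on neither bounding interval held 2.54 peaks per Mb (2.39 to 2.71), those with p300 on 1 held 3.81 (3.55 to 4.09), and the 50 with p300 on both held 5.09 (4.40 to 5.85). Broader intervals overlapped p300 more often, and width was not matched between these groups. No test was run on them.

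The subgenomes did not differ detectably in p300 inside long gaps. There were 3.22 series-wide peaks per Mb on L (3.03 to 3.42) and 2.99 on S (2.80 to 3.19), a mean log2 ratio of 0.09 ± 0.23 (7 of 9 pairs higher on L, exact permutation p = 0.273, adjusted 0.273). The values were 4.75 on L and 4.38 on S in replicate 1, and 11.7 on L and 11.8 on S in replicate 2. With gaps from the H3K4me3 replicate 1 list alone the ratio was 0.19 ± 0.20 (exact p = 0.0234), so the call depended on that library. For the contrast of long with shorter gaps, the difference between the subgenomes was -0.08 ± 0.24 on the log2 scale, L minus S (exact permutation p = 0.371), which did not pass either.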

How the data were processed

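The authors deposited peak positions in 6 lists, 4 of single replicates and 2 series-wide. MACS2 2.1.0.20140616, BWA 0.7.10-r789 and bedtools are named, without roles, per the submitters' processing notes. The sources used here do not give their settings, the build or the control. The files hold chromosome, start and end only, so no signal or depth was known and peak number was not read as binding strength. A peak that failed the authors' threshold in 1 replicate lengthens a gap.

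Gaps ran from the end of a series-wide H3K4me3 interval to the start of the next, and scaffolds and chromosome ends were left out. The span of a chromosome is the last peak end in any list. A p300 peak was placed in a gap by its centre if it did not overlap H3K4me3 by 1 bp or more. Distances in the main results ran to series-wide H3K4me3 intervals only. Densities carry exact Poisson and shares Wilson 95% intervals, for counting error only, and both take the counted items as independent. Comparisons used an exact permutation of signs (two-sided) over the 9 homeologous pairs, with Benjamini-Hochberg adjustment over 7 tests. L to S densities had 0.5 added to counts. Python 3.11.15, numpy 2.4.6 and scipy 1.17.1 were used, and the functions were tested on simulated data.

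Gaps were named by rule: the 10 longest, the longest on L and on S, the 5 with most and the 5 with densest p300, the 3 longest without series-wide p300, those with the 3 longest p300-free stretches, and the 3 on either side of the threshold. Members, rules and tests were chosen with earlier results of these data known. The gene table at hand describes another assembly, so gene names, motifs and sequence content were not analysed here. Replicate numbers are not said to mark a shared batch.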

Additional observations from a re-analysis of the deposited data

How the results depend on the processing

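The lower p300 density of long gaps kept its direction and its exact p under 0.05 in all 13 alternatives, from -1.59 to -0.81, as did the p300 share of bounding intervals in 12 (-6.89 to -1.99 points). At 50 to 250 kb from H3K4me3 the density ratio lost its call from 750 kb (-0.37), for p300 of 200 bp or more (-0.38), at 50 to 100 kb (-0.30) and at 100 to 250 kb (-0.12). Recurrence lost it among peaks at 50 to 250 kb (-1.47 and -2.64 points), and so did width (-0.02), also for peaks of 200 bp or more (-0.03). The bounding width ratio lost its call with both H3K4me3 replicates joined (0.27) and with the H3K4me3 replicate 1 list alone (0.23). With the other single lists it kept its call and ran from 0.36 to 0.72. The L to S ratio ran from -0.04, with p300 replicate 2 alone, to 0.19, with the H3K4me3 replicate 1 list alone. Only in the latter did it pass (exact permutation p = 0.0234). The causes were not tested. Long gaps numbered 1273 from 400 kb, 339 from 750 kb and 533 with both replicates joined (602 and 730 with single H3K4me3 lists), and 394 held p300 of 200 bp or more (724 and 810 with single p300 lists). A replicate block, pairing H3K4me3 and p300 lists by number, gave -1.10 for density and changed none of the 5 calls it was run on. Recurrence, which uses both lists, and the bounding width ratio had no such fit. Deviations of same-numbered lists over 1 Mb bins had r = 0.09. Requiring the whole p300 peak inside the gap changed nothing, because a peak that does not overlap H3K4me3 already lies wholly in a gap. Alternatives on distance bands, bounding width and p300 at single-replicate H3K4me3 were chosen after seeing the data. Depth is unknown, how much of a gap is unassembled or repeated sequence was not measured, and the 2 replicates per target limit what either list shows alone.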

Other observations

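Chromosome ends are not gaps between intervals and were not counted, but 3 of them were 500 kb or longer: 533 kb before the first H3K4me3 interval of 1L, 716 kb before that of 5S, and 1575 kb after the last of 4L up to the last peak of any list. The gap on 2S from 25510337 to 27051293, among the longest without series-wide p300, was bounded by H3K4me3 intervals of 61 and 83 bp. Neither a series-wide p300 peak nor an H3K4me3 call of either replicate was found inside 76 of the 812 long gaps.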
